A study of Mus musculus with 21 samples.

Results

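The heat shock chaperone genes described here are *Hspa1a*, *Hspa1b*, *Hspa8*, *Hsp90aa1*, *Hsp90ab1*, *Dnajb1*, *Hsph1*, *Hspd1*, *Hspe1* and *Bag3*. They were chosen by symbol, as inducible and constitutive members of the heat shock system, with earlier results of these data known. All 10 symbols matched an Ensembl identifier in the count tables, out of 51467 genes, and all 10 are among the 14518 genes that passed the filter on low counts and were tested. In *Ddx6* KO cells, *Hspa8*, *Hsp90ab1*, *Dnajb1*, *Hspd1* and *Hspe1* fell in both nascent RNA and mRNA, *Hsp90aa1* rose in both, and *Hspa1b* rose in mRNA at a log2 fold change of 0.99. The mRNA changes of *Dnajb1* (-0.18) and *Hsp90aa1* (0.15) were small, and their calls were lost in 5 and 3 of 15 alternative fits. *Hspa1a* had more counts in every KO library than in any wild-type library, at very low counts, and it passed the filter through KO libraries alone. For *Hsp90aa1*, 1 of the 10 members against 12.4% of tested genes, the mRNA change differed from the nascent change past the threshold, a call that was lost with clone 1 alone.

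The study asked how the RNA helicase DDX6 links translation to mRNA stability in mouse embryonic stem cells (ESCs). It compared 3 wild-type samples with 4 *Ddx6* KO samples, 2 from each of 2 clones made with CRISPR-Cas9 and a guide RNA against *Ddx6*. Each sample was labelled with 500 µM 4-thiouridine (4sU), a uridine analogue that enters RNA as it is made, for 30 min. Biotinylated 4sU RNA was pulled down to give a nascent RNA library, and total RNA depleted of rRNA gave a library of mRNA levels.

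Both genotypes are ESCs that were grown in serum with LIF and 2i, the MEK inhibitor PD0325901 together with the GSK3 inhibitor CHIR99021. The labels call the groups wild type and DDX6 KO, clone 1 and clone 2, and give no strain, sex or age. Each knockout line is 1 clone, so clonal differences and the loss of DDX6 cannot be told apart within a clone. The labels number the samples as replicates without saying how separately they were grown, so the p values below measure the spread between these samples.

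Chaperones bind unfolded or partly folded proteins and let them fold without clumping. HSP70 proteins do so in cycles of ATP hydrolysis that J-proteins start and nucleotide exchange factors end, and HSP90 proteins take over many kinases and hormone receptors at a later step of folding. In the mitochondrial matrix, the HSPD1 ring and its HSPE1 lid enclose single proteins. Heat and other proteotoxic stress release the factor HSF1, which binds heat shock elements, alternating inverted repeats of a GAA-centred unit, and switches on the inducible members. The constitutive members are abundant in dividing cells without stress.

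Promoter sequences are shown for some members whose promoters held an exact match to 3 or to 2 adjoining units near the start. Only exact matches were taken, so a match to 2 units does not mark an element as partial. In RefSeq promoters of GRCm38.p6, which run from 250 bases before to 50 after a start site, both orders of 2 adjoining units, GAANNTTC and TTCNNGAA, were searched on both strands, as was the element of 3 units that joins them with an overlap. Of 32851 promoters, 198 (0.603%) held the 3-unit element and 15.1% held a 2-unit element, which every 3-unit element also contains. *Hspd1* and *Hspe1* lie head to head on chromosome 1, with start sites 216 bases apart, and the *Hspe1* window held the same element as 1 of the 2 *Hspd1* promoter windows in the table, while the other *Hspd1* window held none. Capitals mark the elements.
*Hspe1*, plus strand, chr1:55088053-55088082, -95 to -66 from the start: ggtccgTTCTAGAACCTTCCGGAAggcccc
*Hsph1*, minus strand, chr5:149636287-149636316, 21 to 50 from the start: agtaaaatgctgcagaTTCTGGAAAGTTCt
*Hspa1a*, minus strand, chr17:34972231-34972290, -134 to -75 from the start: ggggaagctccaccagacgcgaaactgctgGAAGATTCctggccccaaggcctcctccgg
*Hspa1b*, minus strand, chr17:34959313-34959372, -134 to -75 from the start: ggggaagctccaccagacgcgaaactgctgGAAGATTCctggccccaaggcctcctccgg

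The *Hspe1* window also overlaps 1 annotated exon, which belongs to a further *Hspd1* transcript. The *Hsph1* element of 3 units lies downstream of the start site, and a further 2-unit match lies upstream, from -33 to -26. From another *Hsph1* start site, the same matches lie at 16 to 28 and at -54 to -47. The windows of *Hspa1a* and *Hspa1b* differ at 0 of 60 bases, and their whole promoters share 296 of 300. *Bag3* held a 2-unit element from 43 to 50 bases after its start, and neither of the 2 *Dnajb1* promoters held any. *Hspa8*, *Hsp90aa1* and *Hsp90ab1* are not in the promoter table used here. These are matches of letters in a window and were not tested for binding.

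In the Gencode M21 annotation of GRCm38, the HSP70 genes *Hspa1a* (ENSMUSG00000091971, chr17:34969190-34972156) and *Hspa1b* (ENSMUSG00000090877, chr17:34956436-34959238) have 1 exon each and lie side by side on the minus strand. *Hspa8* (ENSMUSG00000015656) lies at chr9:40800984-40810087 with 9 exons in its principal transcript. The HSP90 genes are *Hsp90aa1* (ENSMUSG00000021270, chr12:110690605-110702728) and *Hsp90ab1* (ENSMUSG00000023944, chr17:45567775-45573271), with 11 exons each. The mitochondrial pair comprises *Hspd1* (ENSMUSG00000025980, chr1:55077835-55088243, 12 exons) and *Hspe1* (ENSMUSG00000073676, chr1:55088132-55091307, 4 exons). The cochaperone genes are *Dnajb1* (ENSMUSG00000005483, chr8:83608193-83612653, 3 exons), *Hsph1* (ENSMUSG00000029657, chr5:149614287-149636376, 12 exons) and *Bag3* (ENSMUSG00000030847, chr7:128523616-128546981, 4 exons).

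The 4sU libraries held 2441639 to 3570192 counts and the total RNA libraries 5724179 to 7369651. *Ddx6* mRNA was at 371 ± 31.6 normalised CPM in wild type (SD, n = 3) and at 42.6 ± 23.7 (SD, n = 4) among the KO samples, and it lay lower in all 4 KO libraries than in any wild-type library. CPM are counts scaled for depth so that every library has the same sum, and normalised CPM are further divided by the library's TMM factor. All 7 naive ESC markers averaged at least 3 CPM in total RNA, with a summed level of 4080 to 4238 CPM in wild type and 4715 to 4907 in KO. Of 4 primed epiblast markers, 3 averaged at least 3 CPM and *Fgf5* stayed under 1 CPM, and their sum was 131 to 144 CPM in wild type and 83.3 to 94.4 in KO. Fibroblast markers summed to 3.14 to 5.34 CPM in wild type and 11.1 to 13.1 in KO, with *Dcn* at 0 in all total RNA libraries. The part of these marker lists in the changes below was not tested.

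Per kb of annotated exon and with the 4sU runs summed, *Hsp90ab1* had the highest nascent and total level of the 10 genes in both genotypes. In wild-type total RNA it was at 1173 ± 89 normalised CPM per kb (SD, n = 3), the 20th highest of all tested genes. It was followed by *Hsp90aa1* at 446 ± 11.6, *Hspa8* at 226 ± 7.29, *Hspd1* at 201 ± 11.1 and *Hspe1* at 146 ± 3.37. *Dnajb1* at 40.9 ± 0.926, *Hsph1* at 33.8 ± 2.75 and *Bag3* at 15.1 ± 1.33 formed the middle of the order. The stress-inducible *Hspa1b* and *Hspa1a* were last, at 1.42 ± 0.0851 and 0.182 ± 0.112 normalised CPM per kb. No neighbours in this order had overlapping ranges in wild-type total RNA. In KO total RNA the order was the same, and *Dnajb1* (35.5 to 36.5) and *Hsph1* (29.9 to 38.6) overlapped. In wild-type 4sU libraries *Hspa8* stood before *Hsp90aa1*, at 752 ± 50.3 against 529 ± 13.5 normalised CPM per kb, and *Hspd1* (152 to 181) overlapped with *Hspe1* (133 to 169). In KO 4sU libraries *Hsp90aa1* stood before *Hspa8*, at 741 ± 86.5 against 519 ± 27.5 (SD, n = 4). As described further on, the 4sU levels of some of these genes differed between the sequencing runs. Over the 4sU libraries, *Hsp90aa1* had 15419 single-end and 33064 re-sequencing counts, and *Hsp90ab1* had 38398 and 23861. Total RNA had the single-end run only, and reads that fit several places were not counted. The order is thus uncertain for genes that share sequence with others, and it was not worked out for each run. Together the 10 genes took 0.551% ± 0.0231 of total RNA counts in wild type and 0.52% ± 0.0216 in KO.

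**Figure D1:**
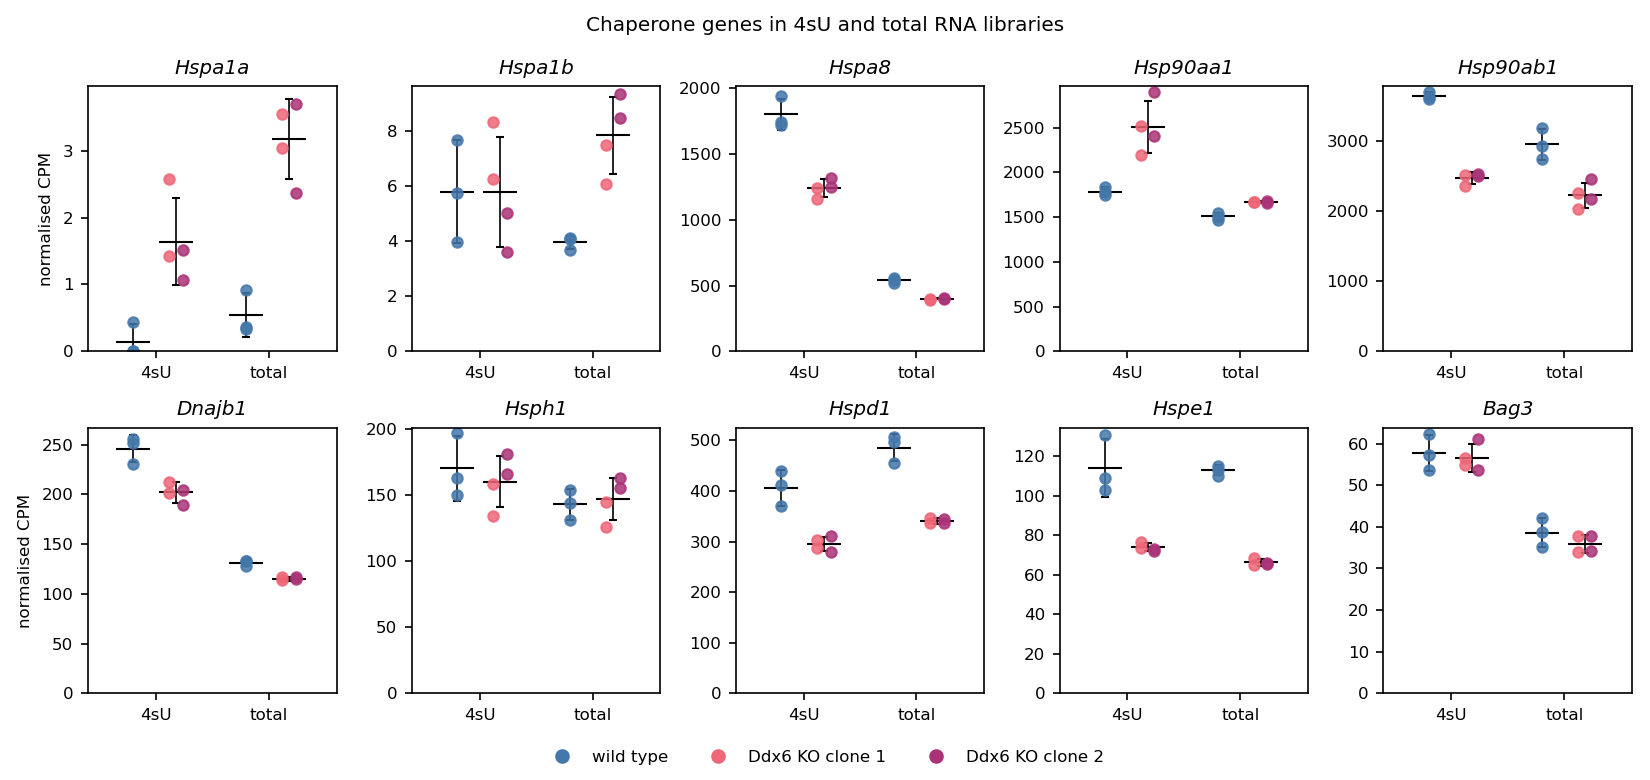
Normalised CPM (y axis, linear from 0, a scale for each gene) of the 10 chaperone genes in the 4sU and total RNA libraries, with a point per sample, black dashes at the means of 3 wild-type and 4 Ddx6 KO samples, and bars of 1 SD. Wild-type and KO points are apart for Hspa8, Hsp90aa1, Hsp90ab1, Dnajb1, Hspd1 and Hspe1 in both assays, and they overlap in both for Hsph1 and Bag3.

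*Ddx6* KO was set against wild type among 4sU libraries for nascent RNA and among total RNA libraries for mRNA. The difference between these fold changes, an interaction term, was taken as the change in stability. A gene was called at a Benjamini-Hochberg adjusted p below 0.05 in edgeR's quasi-likelihood test over all tested genes. *Hspa1a* entered the test through 3 KO libraries alone and reached 3 CPM in 0 wild-type libraries, so the filter picked it for being high in KO. These 3 were total RNA libraries, since its KO values in 4sU were 1.06 to 2.57 normalised CPM. In nascent RNA, 7 of 10 members were called, against 41.6% of all tested genes. Of these, 2 were higher in KO (20.6% of tested genes) and 5 were lower (21%). In mRNA, 8 of 10 were called (50.5% of tested genes), with 3 higher (19.5%) and 5 lower (31%). Without *Hspa1a*, 6 of 9 were called in nascent RNA, 1 higher and 5 lower, and 7 of 9 in mRNA, 2 higher and 5 lower. Wild-type and KO values did not overlap for 7 members in 4sU (41.7% of tested genes) and for 8 in total RNA (52.4%), or for 6 and 7 of 9 without *Hspa1a*. The shares over all tested genes were not matched for expression level. Per kb in wild-type total RNA, *Hsp90ab1*, *Hsp90aa1*, *Hspa8*, *Hspd1* and *Hspe1* lay at percentile 96.8 or higher of tested genes. The median log2 fold change was -0.19 over the 10 members and 0.00 over all tested genes in nascent RNA, and -0.15 and -0.10 in mRNA. These member medians include *Hspa1a*. With an absolute log2 fold change above 1 also required, 0 of the 9 members other than *Hspa1a* were called in nascent RNA (10.9% of tested genes) or mRNA (10.1%).

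**Figure D2:**
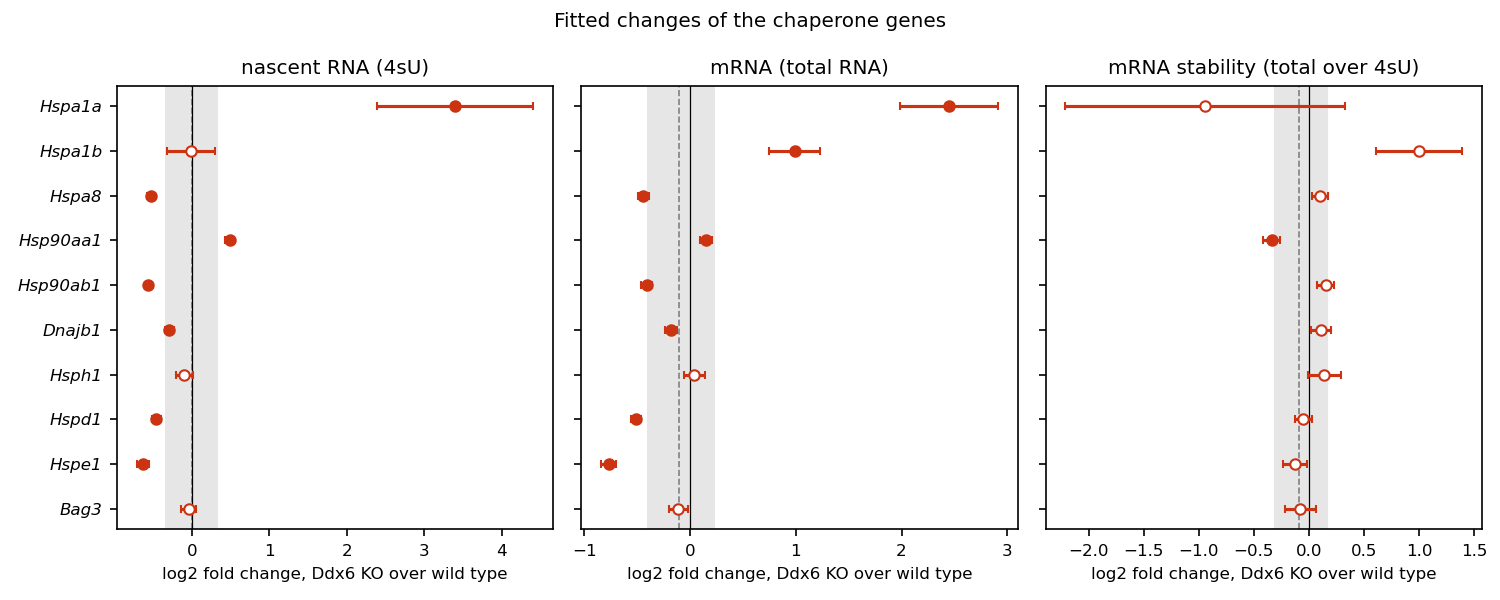
Fitted log2 fold change (x axis, KO over wild type) of each chaperone gene in nascent RNA, mRNA and mRNA stability, with bars of 1 SE and filled points for an adjusted p below 0.05. The dashed line and the grey band give the median and the middle 50% of all tested genes. Hspa1a stands at 3.40 in nascent RNA and 2.45 in mRNA, while 5 genes lie between -0.29 and -0.63 in nascent RNA.

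The inducible HSP70 genes *Hspa1a* and *Hspa1b* encode almost the same protein, which cells make mainly under stress. *Hspa1a* had 2, 2 and 6 counts in the wild-type total RNA libraries and 19, 27, 18 and 24 in the KO libraries. In the 4sU libraries it had 1, 0 and 0 counts in wild type and 5, 8, 5 and 4 in KO. Of these 4sU counts, 22 came from the single-end run and 1 from the re-sequencing run, both described further on. All KO libraries thus held more counts than any wild-type library in both assays, at levels of at most 3.7 normalised CPM. Set against library depth, summed total RNA counts were 5.65 times as high in KO (95% exact interval 2.93 to 12.2), and summed 4sU counts 12.4 times as high (2.01 to 513). These intervals cover counting error only. The fitted log2 fold changes were 2.45 in mRNA (SE 0.46) and 3.40 in nascent RNA (SE 1.01), with no p given because the filter chose the gene by its KO libraries. With no filter beyond 1 count they were 2.55 (adjusted p = 7.73e-07, edgeR) and 3.43 (adjusted p = 0.0059, edgeR). At so few wild-type counts these values depend on the prior count of the fit, and without wild-type replicate 1, which held the 1 nascent count, the nascent value was 6.03.

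*Hspa1b* was at 4.09, 4.12 and 3.69 normalised CPM in wild-type total RNA. In KO it was at 6.07 and 7.49 in clone 1 and at 9.36 and 8.49 in clone 2, so that the groups did not overlap. The rise had a log2 change of 0.99 (SE 0.24, adjusted p = 0.000372, edgeR). In 4sU libraries *Hspa1b* was at 5.76, 7.69 and 3.98 normalised CPM in wild type and at 6.26, 8.35, 3.63 and 5.02 in KO. These overlap throughout, with a log2 change of -0.01 (SE 0.31, adjusted p = 0.983, edgeR). From 11 to 26 reads per 4sU library stood behind these values, and the 95% exact interval of the KO over wild-type ratio of summed counts ran from 0.679 to 1.46. *Hspa1a* shared 66.3% of its 50-base stretches with other annotated genes and *Hspa1b* shared 62.3%, mostly with each other. Reads that fit both were not counted, so the split of counts between them is uncertain.

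*Hspa8* encodes the constitutive HSP70, which folds new proteins and strips clathrin from vesicles. It fell in both assays. In 4sU libraries it was at 1741, 1723 and 1940 normalised CPM in wild type and at 1160, 1240, 1320 and 1253 in KO. In total RNA it was at 522, 545 and 557 in wild type and at 402, 394, 404 and 401 in KO. The groups were apart in both assays, and the KO libraries lay within an SD of 4.38 in total RNA. The log2 fold changes were -0.53 in nascent RNA (SE 0.05, adjusted p = 4.44e-13, edgeR) and -0.44 in mRNA (SE 0.05, adjusted p = 3.54e-10, edgeR). In bulk RNA like this, a change in the share of cells and a change in RNA per cell cannot be told apart, here and in all comparisons that follow.

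The cytosolic HSP90 genes moved in opposite directions. *Hsp90ab1*, the constitutive form, was at 3634, 3704 and 3603 normalised CPM in wild-type 4sU libraries and at 2355, 2520, 2533 and 2506 in KO. In total RNA it was at 2741, 2936 and 3189 in wild type and at 2029, 2255, 2174 and 2455 in KO. Every KO value lay below every wild-type value. The log2 fold changes were -0.56 in nascent RNA (SE 0.05, adjusted p = 5.24e-13, edgeR) and -0.41 in mRNA (SE 0.05, adjusted p = 3.94e-09, edgeR).

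*Hsp90aa1*, the form that heat induces, was higher in KO. In 4sU libraries it was at 1743, 1786 and 1834 normalised CPM in wild type and at 2519, 2199, 2402 and 2895 in KO, with a log2 change of 0.49 (SE 0.06, adjusted p = 3.36e-10, edgeR). In total RNA it was at 1472, 1550 and 1507 in wild type and at 1671, 1665, 1660 and 1685 in KO. The groups did not overlap here either, at a log2 change of 0.15 (SE 0.06, adjusted p = 0.0264, edgeR). The mRNA call was lost with limma-voom (adjusted p = 0.0568), without wild-type replicate 1 (adjusted p = 0.115, edgeR) and without wild-type replicate 3 (adjusted p = 0.0658, edgeR).

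The mitochondrial chaperonin genes *Hspd1* and *Hspe1*, which share the region with the 3-unit element shown above, fell together. *Hspd1* was at 370, 411 and 439 normalised CPM in wild-type 4sU libraries and at 303, 287, 311 and 280 in KO. Its total RNA values were 456, 507 and 496 in wild type and 347, 336, 345 and 337 in KO. The log2 fold changes were -0.46 in nascent RNA (SE 0.06, adjusted p = 3.29e-09, edgeR) and -0.51 in mRNA (SE 0.05, adjusted p = 9.09e-12, edgeR). The groups were apart in both assays.

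*Hspe1* was at 109, 103 and 131 normalised CPM in wild-type 4sU libraries and at 76.8, 73.5, 72 and 73.1 in KO. Its total RNA values were 115, 113 and 110 in wild type and 68.7, 65, 65.8 and 65.6 in KO. No values overlapped between groups. Its log2 fold changes were -0.63 in nascent RNA (SE 0.08, adjusted p = 4.3e-09, edgeR) and -0.77 in mRNA (SE 0.07, adjusted p = 3.46e-14, edgeR). *Hspd1* and *Hspe1* also have pseudogene rows in the tables, and among these *Hspd1-ps3* held the most counts, 113 over all total RNA libraries.

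Of the cochaperones, *Dnajb1* encodes the inducible J-protein that starts the HSP70 cycle. In 4sU libraries it was at 256, 231 and 252 normalised CPM in wild type and at 201, 213, 204 and 189 in KO, which gave a log2 value of -0.29 (SE 0.06, adjusted p = 0.000168, edgeR). In total RNA it was at 133, 128 and 133 in wild type and at 117, 114, 117 and 115 in KO, which gave -0.18 (SE 0.06, adjusted p = 0.0108, edgeR). No values overlapped between groups. The calls depended on the scaling and the filter. With scaling by library size only, the log2 fold changes were -0.08 in nascent RNA (adjusted p = 0.288, edgeR) and -0.03 in mRNA (adjusted p = 0.765, edgeR), with TMM within each assay the mRNA value was -0.09 (adjusted p = 0.228, edgeR), and with no filter it was -0.08 (adjusted p = 0.493, edgeR). Either clone alone also left the mRNA value short of the threshold, at an adjusted p of 0.0544 and 0.0734 (edgeR).

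*Hsph1*, which encodes the HSP110 exchange factor of HSP70, was not called. It was at 150, 163 and 197 normalised CPM in wild-type 4sU libraries and at 134, 158, 181 and 166 in KO. Total RNA values were 131, 144 and 154 in wild type and 126, 145, 155 and 163 in KO. The groups overlapped in both assays. The log2 fold changes were -0.10 in nascent RNA (SE 0.11, adjusted p = 0.517, edgeR) and 0.04 in mRNA (SE 0.10, adjusted p = 0.747, edgeR).

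*Bag3* encodes an exchange factor that directs HSP70 clients to autophagy, and it was not called either. It was at 53.6, 57.2 and 62.3 normalised CPM in wild-type 4sU libraries and at 54.9, 56.5, 61.1 and 53.6 in KO. Total RNA values were 35.2, 38.7 and 42 in wild type and 37.9, 33.9, 34.3 and 37.7 in KO. The log2 fold changes were -0.04 (SE 0.10, adjusted p = 0.813, edgeR) and -0.11 (SE 0.09, adjusted p = 0.318, edgeR). Of the 3 genes among the members that RefSeq promoters showed with a 3-unit element, *Hspd1* and *Hspe1* fell and *Hsph1* was not called.

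The split of all calls into higher and lower depends on the scaling. In nascent RNA 49.5% of called genes were higher in KO after TMM and 74.2% with scaling by library size only. In mRNA it was 38.6% after TMM, 50.8% with TMM within each assay and 60.3% with library size only. Scaling by library size only put the median gene at 0.21 in nascent RNA on the log2 scale. Under it, *Hspa8*, *Hsp90ab1*, *Hspd1* and *Hspe1* stayed lower in KO, with log2 fold changes of -0.33, -0.35, -0.26 and -0.43 in nascent RNA, and *Hsp90aa1* stayed higher at 0.69.

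The ratio of total to 4sU RNA served as a measure of relative mRNA stability, on the assumption that RNA levels are at steady state. It is given as log2 of total normalised CPM minus log2 of 4sU normalised CPM, with 0.5 CPM added to each. In wild type, all tested genes had a median of 0.07 and a middle 50% from -1.11 to 0.87. *Hspa8* had the lowest ratio of the 10 members, at -1.74, -1.66 and -1.80 in the wild-type samples, at percentile 17.1 of tested genes. *Dnajb1* followed at -0.95, -0.85 and -0.92 and *Bag3* at -0.60, -0.56 and -0.56. These 3 did not overlap with each other. *Hsp90ab1* (-0.31 ± 0.12), *Hsph1* (-0.24 ± 0.10) and *Hsp90aa1* (-0.24 ± 0.04) lay together at percentiles 40 to 41.6, and *Hspe1* (-0.01 ± 0.20) and *Hspd1* (0.26 ± 0.07, SD, n = 3) lay at percentiles 47.5 and 55.4. The ratios of *Hspa1b* (-0.46 ± 0.37) and *Hspa1a* (0.71 ± 0.81) spread widely, and that of *Hspa1a* rests on 0 or 1 count of 4sU RNA and on the added 0.5 CPM.

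In *Ddx6* KO the ratio was -1.63 ± 0.08 for *Hspa8*, -0.80 ± 0.08 for *Dnajb1*, -0.65 ± 0.16 for *Bag3* and -0.58 ± 0.16 for *Hsp90aa1* (SD, n = 4). *Hsp90ab1* was at -0.16 ± 0.09, *Hspe1* at -0.16 ± 0.02, *Hsph1* at -0.11 ± 0.08 and *Hspd1* at 0.21 ± 0.05. *Hsp90aa1* was the member whose KO values (-0.59, -0.40, -0.53 and -0.78) did not overlap with wild type (-0.24, -0.20 and -0.28), where 22.9% of tested genes did not overlap. It was also the 1 member called for stability, against 12.4% of tested genes in either direction and 8.58% with a fall. Its log2 change was -0.34 (SE 0.08, adjusted p = 0.00234, edgeR). Clone 1 alone gave -0.24 (adjusted p = 0.068, edgeR) and clone 2 alone -0.41 (adjusted p = 0.00325, edgeR).

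*Hspa1b* had a stability change of 1.00 on the log2 scale that did not pass the threshold (SE 0.39, adjusted p = 0.0863, edgeR). Its ratios were -0.04 and -0.15 in clone 1 and 1.25 and 0.70 in clone 2, beside -0.45, -0.83 and -0.10 in wild type. Clone 2 alone gave 1.59 (adjusted p = 0.0197, edgeR), and leaving out clone 1 replicate 2 gave 1.24 (adjusted p = 0.0465, edgeR). *Hspa1a* had a value of -0.94 (SE 1.27, adjusted p = 0.715, edgeR), and at that SE neither a rise nor a fall was detectable. The 7 other members had values from -0.13 to 0.15, with adjusted p from 0.216 to 0.794 (edgeR). Among them, *Hsp90ab1* passed the threshold with TMM within each assay, at 0.24 (adjusted p = 0.0347, edgeR). With an absolute log2 change above 1 also required, 0 members were called, against 1.08% of tested genes, while without it edgeR called 1 and DESeq2 called *Hsp90aa1* too (adjusted p = 0.0324). At an unadjusted p below 0.05, edgeR had *Hsp90aa1* and *Hspa1b*.

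**Figure D3:**
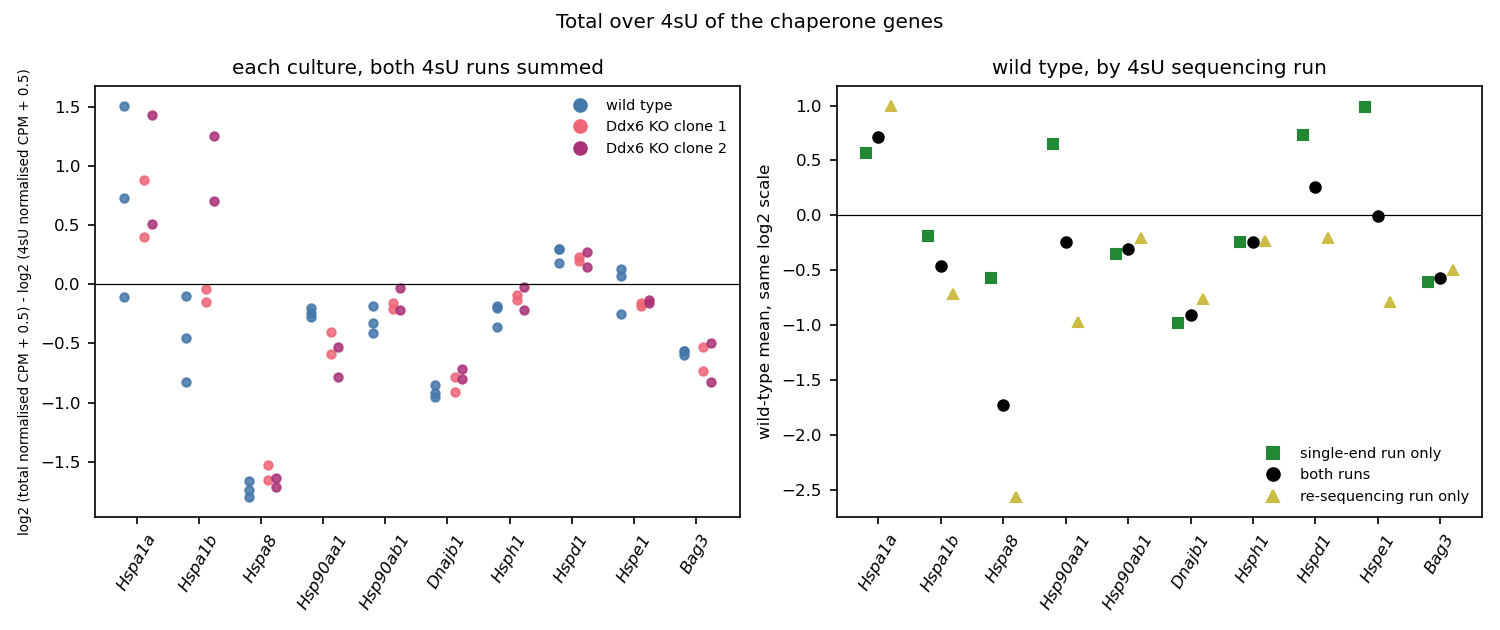
Left: log2 ratio of total to 4sU normalised CPM, with 0.5 CPM added to each, for the 10 chaperone genes, with a point per sample. Right: the wild-type mean of the same ratio with 4sU counts from the single-end run only, both runs, or the re-sequencing run only. Hspa8 has the lowest ratio with both runs and with the re-sequencing run, and Hspa8, Hsp90aa1, Hspd1 and Hspe1 move down from the single-end to the re-sequencing run.

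All libraries had a single-end run, and the 4sU libraries had a further paired-end run, called re-sequencing in the labels. For 4 members CPM were higher in the re-sequencing run in every library, while *Hspa1a* had few counts there. *Hspa8* CPM were 3.48 to 4.17 times as high in the re-sequencing run as in the single-end run of the same library, *Hspe1* 2.21 to 3.48 times, *Hsp90aa1* 2.66 to 3.21 times and *Hspd1* 1.69 to 1.97 times. Over 10888 genes with at least 100 single-end 4sU counts, the median of this quantity was 0.884 and the 5th to 95th percentiles were 0.717 to 1.36. *Hsp90ab1*, *Dnajb1*, *Hsph1* and *Bag3* had medians of 0.822 to 0.858 over the libraries. *Hspa1a* had 22 counts in the single-end run and 1 in the re-sequencing run over all 7 libraries. Its mean CPM in the re-sequencing run was 0.0716 times that in the single-end run. Over all genes the re-sequencing run gave 39.5% to 45.6% of the 4sU counts of a library.

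The 4 genes with high values shared many 50-base stretches, the single-end read length, with other annotated genes, while the 4 genes near the median shared few. The shares were 39.4% for *Hspa8*, 22.8% for *Hspe1*, 47.5% for *Hsp90aa1* and 42.1% for *Hspd1*, and 3.44%, 0.412%, 0% and 0% for *Hsp90ab1*, *Dnajb1*, *Hsph1* and *Bag3*. For *Hspa8* most of these stretches were also in *Gm15459* and *Gm26825*, and for *Hsp90aa1* in *Gm12346*. *Hspa1b*, with 62.3%, had a median of 1.02 over the libraries (0.672 to 2.38). The part of such sequence in the difference between runs was not tested. The wild-type ratio of total to 4sU RNA moved with the run. With the single-end run only, it was -0.57 for *Hspa8* (percentile 33.3), 0.65 for *Hsp90aa1*, 0.73 for *Hspd1* and 0.99 for *Hspe1*. With the re-sequencing run only, it was -2.57 (percentile 8.2), -0.97, -0.21 and -0.79. With the single-end run only, where both assays had the same read type, *Dnajb1* had the lowest ratio at -0.98.

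The nascent changes between genotypes of these 4 genes had the same direction in both runs and passed the threshold in each. With the single-end run only, the nascent log2 fold changes of *Hspa8*, *Hspe1*, *Hsp90aa1* and *Hspd1* were -0.56, -0.51, 0.46 and -0.49, and with the re-sequencing run only they were -0.50, -0.66, 0.53 and -0.43. *Hspe1* had the widest gap between runs, and its stability change was -0.24 and -0.10, past the threshold in neither. The stability change of *Hsp90aa1* was -0.30 (adjusted p = 0.0194, edgeR) and -0.38 (adjusted p = 0.000668, edgeR). *Hspa1a* lost its nascent call with the re-sequencing run, in which it had 1 count (adjusted p = 0.562, edgeR).

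**Figure D4:**
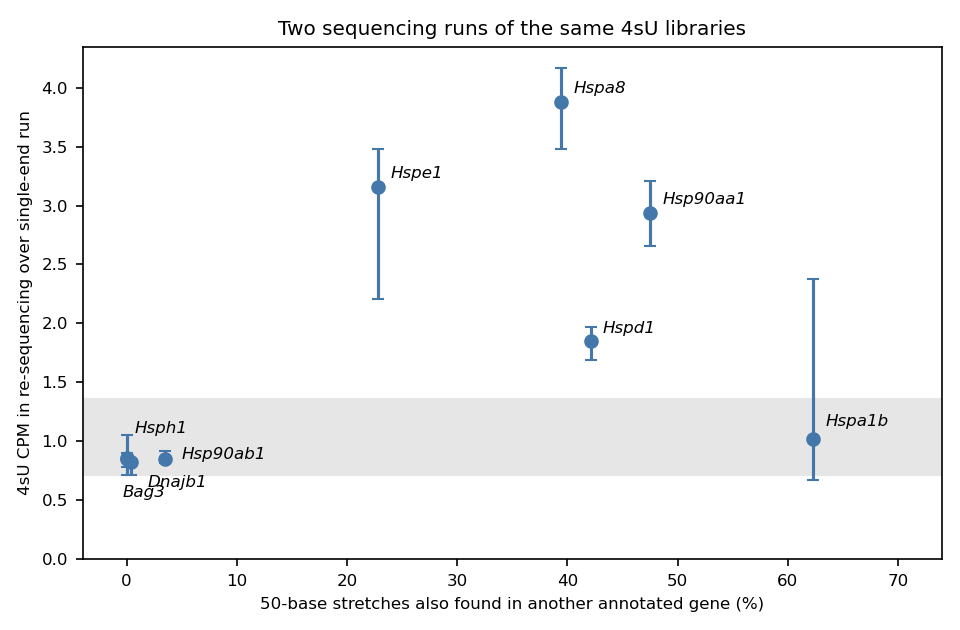
4sU CPM in the re-sequencing run over the single-end run (y axis, median with the lowest and highest of 7 libraries) against the percent of 50-base stretches that each gene shares with another annotated gene (x axis). The grey band is the 5th to 95th percentile of 10888 genes, and Hspa8, Hspe1, Hsp90aa1 and Hspd1 lie above it. Hspa1a, with 1 count in the re-sequencing run, is left out.

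Between the 2 knockout clones, 0 of the 10 members differed past the threshold in nascent RNA, mRNA or stability (edgeR), against 0.172%, 0.296% and 0.00689% of tested genes. DESeq2 also called 0 in each. At an unadjusted p below 0.05, *Hsph1* was higher in clone 2 in nascent RNA by 0.24 (SE 0.10, adjusted p = 0.663, edgeR) and in mRNA by 0.23 (SE 0.09, adjusted p = 0.564, edgeR) on the log2 scale. *Hsp90aa1* was higher in clone 2 in nascent RNA by 0.17 (SE 0.07, adjusted p = 0.672, edgeR). *Hspa1b* differed in stability by 1.12 (SE 0.44, adjusted p = 1, edgeR). With 2 samples a clone, differences of this size did not pass the threshold.

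The wider chaperone network was described by 9 lists with 98 genes, of which 91 were tested. In mRNA 10 rose, 49 fell and 32 did not pass the threshold, so that 64.8% were called against 50.5% of all tested genes (19.5% higher and 31% lower), with a median log2 fold change of -0.24 beside -0.10 over all tested genes. In nascent RNA 12 rose and 26 fell, or 41.8% called against a nearly equal 41.6% of all tested genes, with a median of -0.11 beside 0.00. In stability 2 rose and 15 fell, or 18.7% called against 12.4%, with a median of -0.15 beside -0.09. The shares of 19.5% higher and 31% lower over all tested genes stand behind each mRNA count that follows, and no list was tested against them. The lists were counted under TMM over all libraries alone. As given above, the share of all mRNA calls that were higher in KO ran from 38.6% to 60.3% with the scaling. Of 14 genes of the TRiC/CCT chaperonin and its partner prefoldin, which fold actin and tubulin, 11 fell and 0 rose in mRNA. *Tcp1*, a ring subunit, fell by 0.55 in mRNA on the log2 scale (SE 0.05, adjusted p = 1.55e-13, edgeR), *Cct8* by 0.43 in stability (SE 0.08, adjusted p = 0.000105, edgeR) and *Pfdn2* by 0.47 in nascent RNA (SE 0.10, adjusted p = 0.000137, edgeR).

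Of 12 HSP90 cochaperones, 9 fell and 1 rose in mRNA (31% and 19.5% of tested genes). *Pih1d1*, of the R2TP assembly complex, fell by 0.62 (SE 0.11, adjusted p = 2.07e-06, edgeR) and *Unc45a*, a myosin chaperone, rose with a log2 change of 0.24 (SE 0.08, adjusted p = 0.0128, edgeR). In nascent RNA, *Unc45a* rose by 0.52 and *Rpap3* fell by 0.39, and in stability *Sugt1* fell by 0.49 on the log2 scale. Of 9 HSP70 cofactors, 6 fell and 1 rose in mRNA, beside the same shares, with *Bag1* down by a log2 fold change of -0.44 and *Bag5* up by 0.24. *Bag5* also rose in stability by 0.56, *St13* fell there by 0.26, and *Stip1*, which hands clients from HSP70 to HSP90, fell in nascent RNA by 0.35. Of 16 J-proteins, 4 rose (19.5% of tested genes) and 7 fell (31%) in mRNA. The largest rise was 1.28 on the log2 scale for *Dnaja4*, from 1.53 ± 0.528 normalised CPM (SD, n = 3) in wild type to 3.71 ± 0.787 (SD, n = 4) in KO. Only its KO mean lay above the 3 CPM of the filter, so the filter may have picked it for being high in KO. Which libraries carried *Dnaja4* past the filter was not examined. The largest fall was a log2 fold change of -0.67 for *Dnajb6*. In nascent RNA, *Dnajb14* rose by 0.73 and *Dnajb6* had -0.45. *Dnajb6* is 1 of 2 genes with a 3-unit element among the 81 listed genes with a promoter in the table, beside *Chordc1*.

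The mitochondrial chaperones and proteases included 7 of 10 genes that fell in mRNA, as *Hspd1* and *Hspe1* did, and 0 that rose, where 31% of all tested genes fell and 19.5% rose. *Hscb*, a J-protein for iron-sulfur cluster assembly, had the largest fall in mRNA at -0.87 (SE 0.14, adjusted p = 6.67e-07, edgeR), *Lonp1* fell by 0.38 in nascent RNA, *Clpp* by 0.59 in stability, and *Yme1l1* rose by 0.24 in nascent RNA. The ER chaperones, which answer to another stress pathway, were split, with 3 of 16 up (19.5% of tested genes) and 4 down (31%) in mRNA. *Pdia4* rose in mRNA by 0.56 (SE 0.06, adjusted p = 6.77e-13, edgeR) and in nascent RNA by 0.77, and *Canx* fell by 0.35 in mRNA and by 0.51 in stability. *Hspa5*, the ER HSP70, fell by 0.43 in nascent RNA and rose by 0.47 in stability. Of 5 small heat shock protein genes tested, *Hspb8*, which encodes a partner of BAG3, rose in nascent RNA by 0.52 and in mRNA by 0.54 (SE 0.07, adjusted p = 1.26e-09, edgeR), and *Hspb1* fell by 0.51 and 0.24.

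Of the other HSP70 and HSP110 genes, 3 of 5 tested fell in mRNA (31% of tested genes). *Hspa2*, an HSP70 gene best known from the testis, had -0.57 in nascent RNA (SE 0.15, adjusted p = 0.002, edgeR) and -0.53 in mRNA, and *Hspa4*, of the HSP110 family, had -0.45 in stability (SE 0.08, adjusted p = 6.13e-05, edgeR). Of 4 tested HSF regulators, *Hsbp1*, which binds HSF1, fell in mRNA by 0.32, and *Hsf5* rose in nascent RNA by 1.64, from 1.34 ± 0.774 to 4.12 ± 1.34 normalised CPM. For *Hsf5*, as for *Dnaja4*, only the KO mean lay above 3 CPM, and which libraries carried it past the filter was not examined. *Hsf1*, the main activator of the heat shock genes and named here after its values were seen, did not pass the threshold in nascent RNA (0.08 on the log2 scale, SE 0.14), mRNA (-0.07, SE 0.09) or stability (-0.15, SE 0.17).

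**Figure D5:**
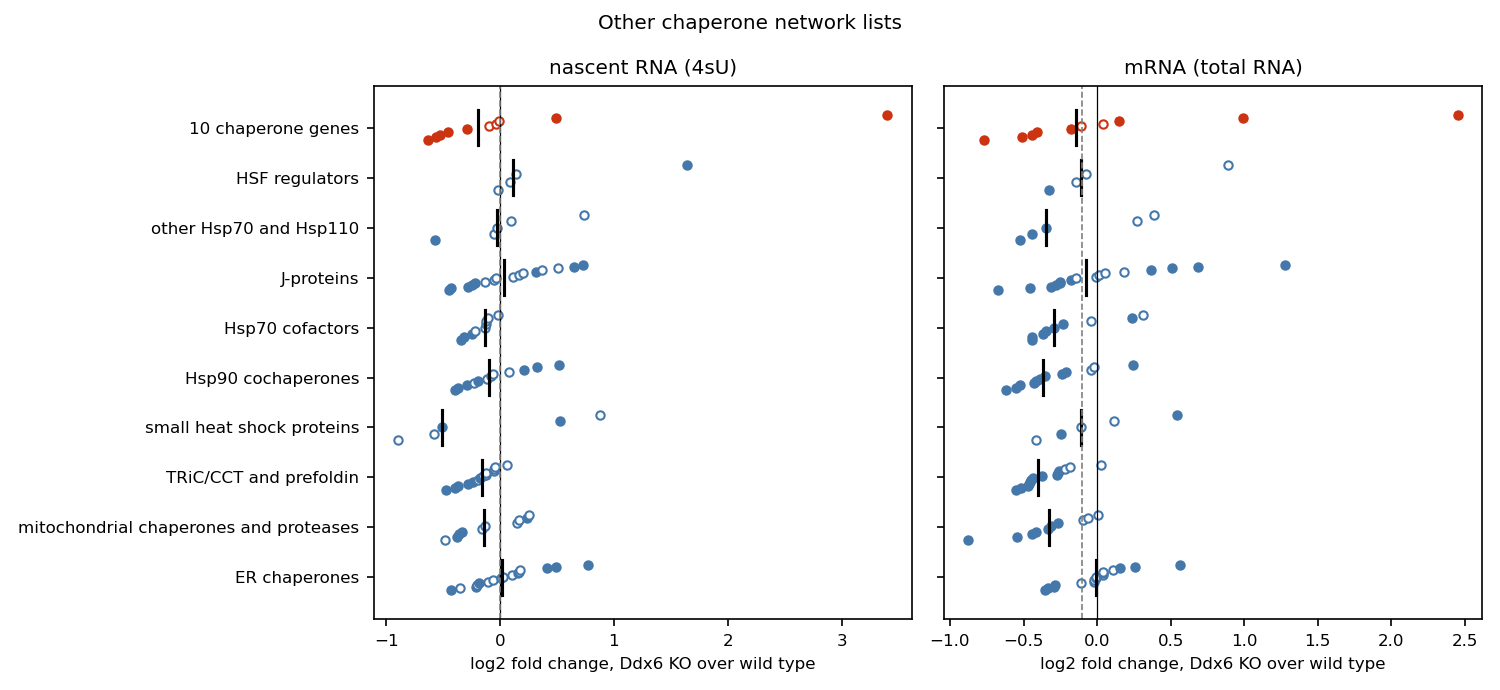
Fitted log2 fold change (x axis, KO over wild type) in nascent RNA and mRNA for the 10 chaperone genes and 9 lists of related genes, with a point per gene, filled at an adjusted p below 0.05, and black bars at the list medians. The dashed line is the median of all tested genes. In mRNA the TRiC/CCT and prefoldin list has a median of -0.40 and the ER chaperones one of -0.01.

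Likeness of profiles was taken as the root mean square difference of log2 normalised CPM over the 14 libraries, centred within each assay, among the 10244 genes that reached 3 CPM in all libraries. Profiles were not centred within genotype, so genes with similar KO changes come out close, and closeness in part restates the fold changes above. *Hspa8*, *Hsp90ab1* and *Hspd1*, which all fell in KO, had another member close by. For *Hsp90ab1* the closest member, *Hspa8*, stood 9th of all genes at a difference of 0.0768, and for *Hspd1* *Hspa8* stood 11th at 0.0691. For *Hspa8* itself *Hspd1* stood 18th, after *Tubb5* (0.0427), *Ddb1* (0.0442) and *Bex1* (0.0469) in front. The genes nearest to *Hspd1* were *Ybx1*, *Cct6a* and *Zfp229*, and those nearest to *Hsp90ab1* were *Rbm8a*, *Fth1* and *Slc3a2*. For *Hspe1*, *Mum1*, *Acsl3* and *Mcm3* were nearest and *Hspd1* stood 140th. The closest member stood 3564th for *Hsp90aa1*, whose nearest genes were *Hnrnpf*, *Rbpms2* and *Ppfia1*, and 3215th for *Hspa1b*, whose nearest were *Emilin1*, *Pqlc2* and *Gpcpd1*. For *Dnajb1* the nearest were *Sfpq*, *Krr1* and *Gtse1*, for *Hsph1* *Surf4*, *Slc7a1* and *Vcpip1*, and for *Bag3* *Map3k7*, *Nup50* and *Ddx17*. The closest member was at rank 1029 for *Dnajb1*, 136 for *Hsph1* and 1142 for *Bag3*. *Hspa1a* was not compared, since it did not reach 3 CPM in every library.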

How the data were processed

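The deposited values are raw counts per gene, without normalization. Per the labels and the study's methods, the authors used Cutadapt 1.14 for trimming, STAR 2.5.3a for mapping to mm10, with reads of more than 1 place discarded, and featureCounts 1.5.3 for strand-aware counting over Gencode M14 genes other than rRNA. The single-end run holds counts of reads and the second run, of 4sU libraries alone, holds counts of read pairs. Both runs of a library were summed here, as the authors did. Reads that fit several places were lost before deposit, which lowers the counts of genes with near-identical copies. The 92 spike-in rows hold 0 counts and were removed. Gene lengths deposited beside the counts served to set genes side by side per kb.

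A gene was kept if 3 or more of 14 libraries had 3 CPM or more of it, as in the study, and tested with edgeR 4.0.16 (robust quasi-likelihood F test, TMM over all libraries, R 4.3.3) in a model of genotype and assay, where the interaction gives stability. The study used limma with an additional fold threshold. Fits were tested on simulated data. Clones were compared in a model with each clone as a group. Ratios of summed counts have exact binomial intervals (scipy 1.17.1). The 10 members and all lists of related genes were chosen with earlier results of these data known. The text names all 10 members, the called gene with the largest rise and the largest fall of each related list in each contrast, *Ddx6*, the pseudogene rows named after a member, and the 3 genes with the most similar profile.

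The 4sU and total library of a sample come from the same extract, which pairs them. Their deviations from the group means correlated by 0.00377 to 0.117 across 10244 genes, and with this culture block the number of members called for stability was also 1. Alternatives were DESeq2 1.42.0, limma-voom (limma 3.58.1), other scalings, no filter beyond 1 count, each run, each clone, each sample left out, blocks and the fold threshold. TMM factors were 0.925 to 0.942 in wild type and 1.03 to 1.07 in KO. Promoter sequences and names come from RefSeq and Gencode tables. Protein sequences and 3' UTR motifs were not analysed here.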

Additional observations from a re-analysis of the deposited data

Results flagged for a closer look

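Among 30 sets of 4 *Ddx6* KO values (4sU level, total RNA level and total over 4sU of the 10 members), 1 had a sample far from the others by Dixon's ratio at its 95% critical value, where chance gives about 1.5 of 30. Nascent *Hsp90ab1* in clone 1 replicate 1 was at 2355 normalised CPM, beside 2506 to 2533 in the other 3 KO samples, a ratio of 0.847. It lay below them, and all 4 lay below the wild-type samples. The cause was not tested.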

How the results depend on the processing

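The number of members called stayed within 1.5 times of 7 under 17 of 18 alternatives in nascent RNA, of 8 under 15 of 16 in mRNA, and of 1 under 14 of 19 in stability. Leaving out each sample in turn gave 6 to 7, 7 to 8 and 1 to 2 members. With a log2 fold change above 1 also required, 1, 1 and 0 were called. For stability, TMM within each assay gave 2, with *Hsp90ab1* joining, and clone 1 alone gave 0. Clone 2 alone and the fit without clone 1 replicate 2 each gave 2, with *Hspa1b* joining. Between clones, all alternatives gave 0. In all tested genes, the counts of 6034, 7327 and 1796 became 1587, 1472 and 157 with the fold threshold. Stability calls became 1125 with the re-sequencing run only, 1071 and 1111 with clone 1 and clone 2 alone, and 1157 and 1026 without wild-type replicates 1 and 2. Calls between clones became 14 (from 25) and 20 (from 43) at the lowest when a sample was left out, and 0 from 1 in stability. In stability, 30.6% of calls were higher in KO, 44.1% with DESeq2, 56% with TMM within each assay and 20.2% with library size only.

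Directions turned for values that did not pass the threshold. Nascent *Hspa1b* became 0.19 with library size only, 0.04 with no filter, 0.13 with the single-end run, 0.33 with clone 1 alone, and ran from -0.24 to 0.26 with a sample left out (above 0 without wild-type replicate 2 or either clone 2 sample). Nascent *Hsph1* became 0.11 with library size only, 0.03 with clone 2 alone and -0.18 to 0.02 with a sample left out (above 0 without wild-type replicate 3), and its mRNA value became -0.06 with clone 1 alone and -0.02 to 0.12 with a sample left out (below 0 without wild-type replicate 1). Nascent *Bag3* became 0.17 with library size only, 0.02 with no filter, 0.01 with the single-end run, 0.03 with the replicate block, -0.09 to 0.02 with a sample left out (above 0 without wild-type replicate 3 or clone 2 replicate 2), and its mRNA value became 0.05 with library size only. In stability, *Hspd1* became 0.01 with DESeq2 and 0.04 with TMM within each assay, *Bag3* 0.01 with TMM within each assay, and *Hspa1a* ran from -3.76 to 0.24 with a sample left out (above 0 without wild-type replicate 3). The cause was not tested.

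The median total over 4sU of the members, -0.29 in wild type, became -0.36 with TMM within each assay, -0.17 with the single-end run and -0.56 with the re-sequencing run. In KO, -0.17 became -0.04 and -0.42 with each run. Wild-type and KO samples share only a replicate number, with correlations of deviations from -0.0578 to 0.132. With that number as a replicate block, 7, 8 and 1 members were called. *Hspa1a* failed the filter in the fits with 1 clone and in those without clone 1 replicate 1, clone 1 replicate 2 or clone 2 replicate 2, so these hold 9 members. In nascent RNA this accounts for the 6 called when a sample was left out. With the fold threshold, the 1 called in each assay was *Hspa1a*. Depth limits *Hspa1a* and *Hspa1b*, with at most 8 and 26 counts of 4sU RNA in a library.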
